A study of Mus musculus with 15 samples.

Results

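The endoderm regulators described here are 6 genes, Gata4, Gata6, Sox17, Sox7, Hnf4a and Afp, chosen by symbol from 22035 genes with H3K27me3 and RNA values in mouse embryonic stem (ES) cells. They account for 18 of 74866 annotated start-site windows measured for H3K4me3. They also have 16 of 98085 random 2 kb bins within 20 kb of a transcript. The cells were TT2, a wildtype male ES line from C57BL/6 x CBA that derives from the inner cell mass of the blastocyst, sorted into known cell numbers. All 15 libraries came from this line, so every comparison is between antibodies or between cell numbers. Native ChIP-seq, which uses chromatin that was not crosslinked, covered H3K27me3 at 1000, 10000 and 100000 cells and H3K4me3 at 5000, 10000 and 100000 cells, with 1 library each. H3K9me3 had a triplicate at 1000 cells (libraries a, b and c) and 1 library each of 10000, 100000 and 1000000 cells. Histone H3 whatever its modification (panH3) was measured in 2 libraries of 1000 cells (a and b), and RNA in 1 library of 1000 cells.

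In the early embryo, GATA and SOX factors of this set switch on primitive endoderm, the layer beside the pluripotent epiblast that later lines the yolk sac. Gata6 and Gata4 are zinc-finger factors able to drive ES cells toward that fate. Sox17 and Sox7 belong to the SoxF family of HMG-box factors, and Hnf4a is a nuclear receptor of visceral endoderm and liver. Afp encodes alpha-fetoprotein, a secreted serum protein of visceral endoderm and fetal liver. In pluripotent cells many such developmental genes carry H3K27me3, the mark of Polycomb repressive complex 2, together with H3K4me3, the mark of active or poised promoters. H3K9me3 marks heterochromatin.

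Promoter sequence from RefSeq (GRCm38.p6) matched 2 of the 6 genes, Hnf4a with promoters 40.3 kb apart and Afp. They are shown for their content of CG dinucleotides and of short motifs; Gata4, Gata6, Sox7 and Sox17 are named only. Each is the 250 bases before the annotated start on the plus strand, at chr2:163506607-163506856, chr2:163546905-163547154 and chr5:90490464-90490713 in that order. Capitals mark each CG and the TATAAA of Afp.
Hnf4a upstream promoter: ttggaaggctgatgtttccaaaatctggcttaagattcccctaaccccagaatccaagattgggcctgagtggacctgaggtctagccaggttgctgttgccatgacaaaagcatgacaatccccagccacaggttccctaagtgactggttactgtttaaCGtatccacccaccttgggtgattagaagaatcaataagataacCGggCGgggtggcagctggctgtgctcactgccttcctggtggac
Hnf4a downstream promoter: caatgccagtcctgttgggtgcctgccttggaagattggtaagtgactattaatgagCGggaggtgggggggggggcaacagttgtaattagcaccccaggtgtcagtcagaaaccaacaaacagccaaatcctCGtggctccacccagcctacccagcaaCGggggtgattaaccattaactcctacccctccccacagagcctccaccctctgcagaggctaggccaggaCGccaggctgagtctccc
Afp promoter: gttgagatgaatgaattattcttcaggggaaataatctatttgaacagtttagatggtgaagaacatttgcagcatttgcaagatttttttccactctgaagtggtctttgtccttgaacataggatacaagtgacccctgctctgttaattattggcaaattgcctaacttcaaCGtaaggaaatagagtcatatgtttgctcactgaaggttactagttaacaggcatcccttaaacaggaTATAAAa
The upstream and downstream Hnf4a promoters held 3 and 4 CG, and the Afp promoter 1 CG, against a median of 6 over 32851 promoters of the same length. GC content was 51.2%, 57.6% and 36% in the same order, against a median of 52.4%. Motifs were searched on both strands as exact letters. TATAAA occurred in Afp, 7 to 2 bases before the annotated start, and in 12.4% of all promoters. The words of the GATA family motif, searched as AGATAA or as TGATAA, occurred once in the upstream Hnf4a promoter, as AGATAA 52 to 47 bases before the start, and in 16.6% of all promoters. A match is only a match of letters.

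RNA of the 6 genes was low. In units of reads per kilobase of exon, scaled to sequencing depth (RPKM), Gata4 had 0.61, Gata6 0.49, Sox17 0.1, Sox7 0.51, Hnf4a 0.1 and Afp 0.01. None of the 6 reached 1 RPKM, whereas 50.2% of all genes did and the median gene had 1.02 RPKM. The ES identity of the library was checked on 13 pluripotency genes, all of which reached 1 RPKM, from 6.89 to 221.81 RPKM. Zfp42 and Pou5f1, the gene of OCT4, had 221.81 and 81.38 RPKM. Of 12 fibroblast and feeder-cell markers, 5 were listed at 0 and Thy1 (1.79 RPKM) and Loxl1 (1.44 RPKM) reached 1 RPKM, with a summed level of 4.05 RPKM. Col3a1, Postn, Lum, Dcn and S100a4 were those listed at 0. No counting interval is given for RNA, whose read depth is unknown. In bulk RNA, few cells with much of a transcript and many cells with little cannot be told apart.

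H3K27me3 within 1 kb of the start site split the 6 genes. The SoxF genes and Gata6 were above 1 RPKM in 2 or all 3 libraries, and Gata4, Hnf4a and Afp were below 1 RPKM in every library. Read depth of the H3K27me3 libraries was 13.04 M at 1000 cells, 15.3 M at 10000 cells and 19.67 M at 100000 cells. Values in brackets are 95% Poisson intervals for counting error alone, from approximate read numbers. These assume the depth found in the bins and a 2 kb window, and the start-site values did not show the steps of such reads. Counts of genes with at least 1 RPKM were 2 of 6 at 1000 cells, 3 of 6 at 10000 cells and 3 of 6 at 100000 cells. Among all genes the shares were 5.25% at 1000 cells, 11% at 10000 cells and 9.55% at 100000 cells.

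Gata6 (NM_010258, chr18:11052508-11085633, plus strand, mm9) had H3K27me3 of 0.8 RPKM (0.499 to 1.23) at 1000 cells, 2.36 RPKM (1.84 to 2.96) at 10000 cells and 2.04 RPKM (1.61 to 2.53) at 100000 cells. It ranked 2000, 476 and 537 from the top of 22035 genes in that order, so its level at 1000 cells lay below the other libraries and its interval did not overlap theirs. Gata4 (NM_008092, chr14:63817753-63864096, minus strand), the close relative of Gata6, had 0.46 RPKM (0.238 to 0.804), 0.79 RPKM (0.502 to 1.17) and 0.4 RPKM (0.232 to 0.661) at 1000, 10000 and 100000 cells. The 3 Gata4 intervals overlapped one another, and its values were above the gene medians of 0.31, 0.28 and 0.28 RPKM.

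Sox17 (NM_011441, chr1:4481009-4486494, minus strand) had the highest H3K27me3 of the 6 in all 3 libraries. Its levels were 3.23 RPKM (2.57 to 3.99) at 1000 cells, 5.02 RPKM (4.27 to 5.89) at 10000 cells and 5.4 RPKM (4.69 to 6.17) at 100000 cells. These ranked 5, 7 and 1 of 22035 genes. Sox7 (NM_011446, chr14:64562545-64569568, plus strand) had 1.49 RPKM (1.06 to 2.05), 3.13 RPKM (2.54 to 3.83) and 2.77 RPKM (2.28 to 3.34), ranks 340, 153 and 190. Sox17 lies on chromosome 1, whose median bin was 1.36 to 1.51 times the autosomal median in all 11 libraries of the bin table, panH3 included. Chromosomes 2, 5, 14 and 18, which carry the other 5 genes, had ratios of 0.811 to 1. Divided by its chromosome's ratio in the same library, Sox17 had 2.27, 3.69 and 3.81 RPKM at 1000, 10000 and 100000 cells, ranks 24, 50 and 17. Sox7 divided likewise had 1.62, 3.41 and 3.02 RPKM, ranks 197, 83 and 89.

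Hnf4a (NM_008261, chr2:163372929-163398640, plus strand) had H3K27me3 of 0.49 RPKM (0.266 to 0.853), 0.57 RPKM (0.324 to 0.889) and 0.7 RPKM (0.473 to 1.03) at 1000, 10000 and 100000 cells. Afp (NM_007423, chr5:90919737-90937936, plus strand) had 0.31 RPKM (0.132 to 0.605), 0.6 RPKM (0.349 to 0.93) and 0.31 RPKM (0.158 to 0.533). At 1000 and 100000 cells Afp stood near the middle of all genes, at percentiles 48.6 and 53.5.

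In the order of H3K27me3 levels, Sox17 was separated from Sox7 by non-overlapping intervals in all 3 libraries as deposited. After division by the chromosome ratio the Sox17 and Sox7 intervals overlapped in all 3, for example 3.31 to 4.36 RPKM for Sox17 and 2.49 to 3.64 RPKM for Sox7 at 100000 cells. Sox7 and Gata6 overlapped in every library. Gata6 was separated from the next gene at 10000 and 100000 cells, and overlapped it at 1000 cells. Gata4, Hnf4a and Afp overlapped one another throughout. All of these separations and overlaps hold only under the assumed read numbers.

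**Figure D1:**
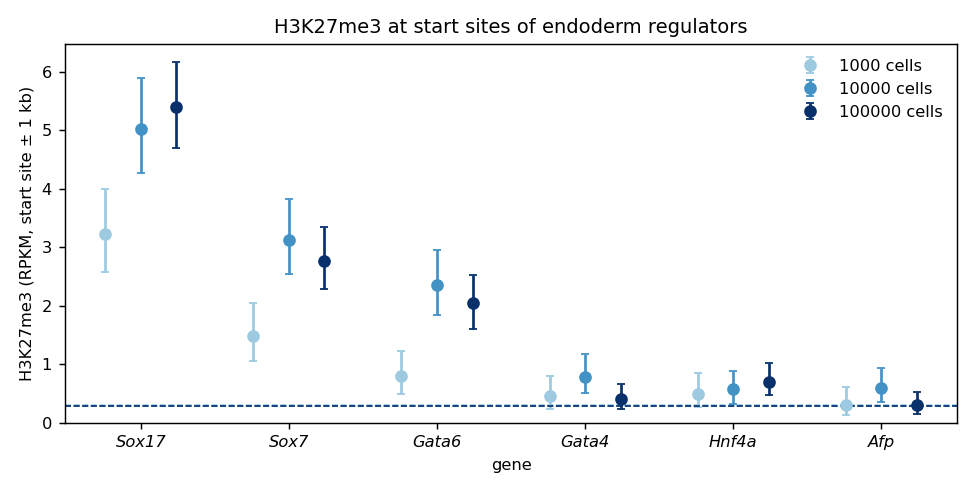
Start-site H3K27me3 (RPKM in 2 kb, y axis) of the 6 endoderm regulators (x axis) in libraries of 1000, 10000 and 100000 cells. Bars are 95% Poisson intervals from assumed read numbers, and dashed lines the medians of all genes (0.31, 0.28 and 0.28 RPKM). Sox17 is highest in each library, at 3.23, 5.02 and 5.4 RPKM.

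H3K27me3 at the lowest and the highest cell number was compared over genes with a mean H3K27me3 of at least 1 RPKM in the 3 libraries. Of 1856 such genes, 92% were lower at 1000 than at 100000 cells, with a median log2 ratio of -0.60 (pseudocount 0.1 RPKM). Gata6, Sox17 and Sox7 were the 3 members above that minimum. Gata6 had 0.8 RPKM at 1000 and 2.04 RPKM at 100000 cells, a log2 ratio of -1.25, Sox7 had a log2 ratio of -0.85 and Sox17 one of -0.72. Thus 1 of 3 lay past 2-fold lower, against 12.6% of the 1856 genes, and none past 2-fold higher, against 0.108%. Gata6 met the minimum through 10000 cells (2.36 RPKM) and 100000 cells, being below 1 RPKM at 1000 cells. Because the minimum uses the compared values, the 1 of 3 is a description only. Gata6 was not past 2-fold with a pseudocount of 1 RPKM. With 1 library at each cell number these differences have no replicate check.

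Other endoderm genes were described from lists chosen with results of these data known. The 22035 genes had 28373 entries, and each of the 6 members had 1. For a gene with several entries, H3K27me3 came from the entry with the highest mean H3K27me3. RNA came from the entry with the most RNA, so the 2 values can belong to different transcripts. Of 16 definitive endoderm and gut genes, 9 had at least 1 RPKM of H3K27me3 at 100000 cells, with a median of 1.41 RPKM against 0.28 RPKM over all genes. The homeobox gene Lhx1 had 4.64 RPKM, and the forkhead pioneer factors Foxa1 and Foxa2 had 3.55 and 3.29 RPKM. In RNA, 1 of the 16 reached 1 RPKM, the homeobox gene Otx2 with 1.19 RPKM, and Foxa3 had 0.85 RPKM. Of 21 primitive endoderm and basement membrane genes, 6 had at least 1 RPKM of H3K27me3, with a median of 0.56 RPKM. They included the receptor Pdgfra (2.33 RPKM) and the collagen Col4a2 (2.33 RPKM); Nid1 had 0.04 RPKM. In RNA, 10 of the 21 reached 1 RPKM, led by the laminin chain Lamc1 (38.22 RPKM), the matrix protein Sparc (33.72 RPKM) and the collagen chaperone Serpinh1 (9.64 RPKM), all of which are also made outside endoderm.

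A hepatic list held genes of secreted proteins, the class of Afp, and Tdo2, which encodes a liver enzyme that is not secreted. H3K27me3 reached 1 RPKM in none of these 14 genes at 100000 cells, with a median of 0.525 RPKM. Apoh (0.94 RPKM), Ahsg (0.82 RPKM) and Tdo2 (0.74 RPKM) were the highest and Serpina1a (0.12 RPKM) the lowest. In RNA, Apoa2 (2.72 RPKM) and Trf (1.96 RPKM) reached 1 RPKM and Rbp4 had 0.68 RPKM. Among 9 paralogs and chromosomal neighbours of the members, Sox18, the third SoxF gene, had 2.57 RPKM and Gata2 had 2.04 RPKM of H3K27me3, while Hnf4g had 0.88 RPKM and Gata3 had 0.05 RPKM. None of the 9 reached 1 RPKM of RNA; Gata1 had 0.74, Gata3 0.51 and Gata2 0.26 RPKM. Gata5 is in this list and in the gut list, and Alb, the neighbour of Afp, is in this list and in the hepatic list. Of the 13 pluripotency genes, Esrrb, an orphan nuclear receptor, had 3.68 RPKM of H3K27me3 and 73.8 RPKM of RNA, possibly of different transcripts. Sox2 and Klf2 had 0.71 and 0.53 RPKM of H3K27me3. Of the 12 fibroblast markers Col1a1 reached 1 RPKM of H3K27me3 (1.25 RPKM), and of 8 housekeeping genes none did.

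**Figure D2:**
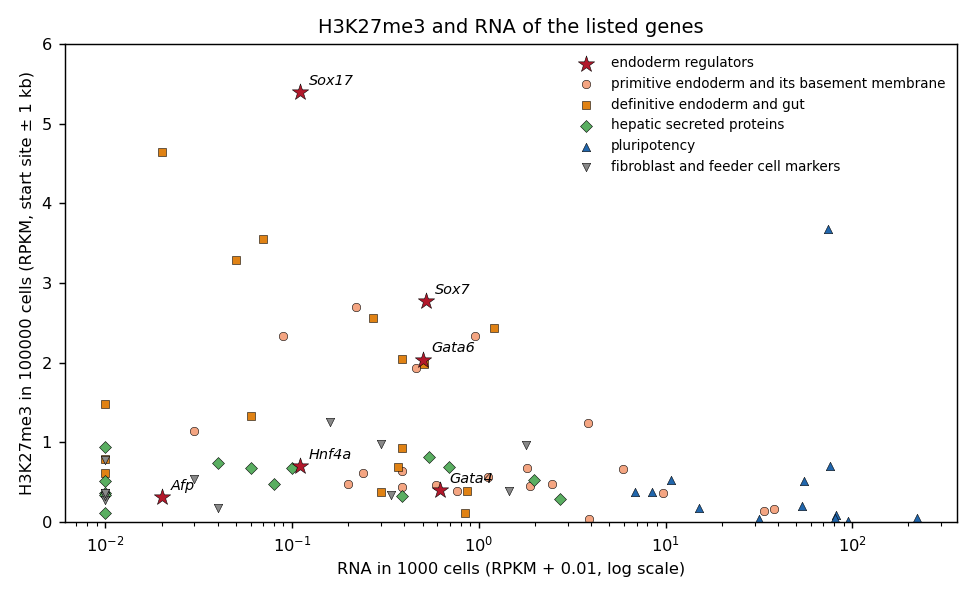
Start-site H3K27me3 at 100000 cells (RPKM in 2 kb, y axis) against RNA in 1000 cells (RPKM + 0.01, log x axis), 1 point per gene, for the endoderm regulators (named stars) and 5 other lists. The 6 stars lie below 1 RPKM of RNA at H3K27me3 levels between 0.31 RPKM (Afp) and 5.4 RPKM (Sox17), and the 13 pluripotency genes lie at 6.89 RPKM of RNA or more. Outside the 6 stars, the 2 values of a gene can come from different transcripts.

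H3K4me3 in the 1 kb windows around annotated start sites was modest at all 6 genes. The library of 100000 cells held 16.6 M reads, and those of 5000 and 10000 cells 1.857 M and 1.067 M reads, so that 1 read was worth 0.5386 RPKM at 5000 cells, 0.9376 RPKM at 10000 cells and 0.06023 RPKM at 100000 cells. Where a gene has several windows, the window with the highest mean stands for it. At 100000 cells 3 of 6 had at least 1 RPKM, against 55.9% of 25727 genes.

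At 100000 cells Gata4 had 1.51 RPKM from 25 reads (0.974 to 2.22 RPKM), and Gata6 had 1.39 RPKM from 23 reads (0.878 to 2.08 RPKM). Both were close to the gene median of 1.39 RPKM. Sox17 had 0.72 RPKM from 12 reads (0.373 to 1.26 RPKM), the lower SoxF gene. Sox7 had 1.87 RPKM from 31 reads (1.27 to 2.65 RPKM), the highest of the 6. Hnf4a and Afp had 0.54 RPKM from 9 reads each (0.248 to 1.03 RPKM). Every gene overlapped its neighbour in this order, but the intervals of Sox7 did not overlap those of Sox17, Hnf4a and Afp. The Hnf4a window has the highest mean through 4 reads at 5000 cells. At 100000 cells it had the fewest reads of the 7 Hnf4a windows, the others having 12 or 13. The low place of Hnf4a thus depends on that choice, and intervals of its other windows were not computed.

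The shallow libraries gave few reads. At 5000 cells Gata4 had 1.62, Gata6 1.08, Sox17 0, Sox7 3.23, Hnf4a 2.15 and Afp 1.08 RPKM, from 0 to 6 reads, against a gene median of 2.15 RPKM. At 10000 cells Gata4 had 6.56 RPKM from 7 reads, Gata6, Sox17 and Sox7 had 1.88 RPKM from 2 reads each, Afp had 0.94 RPKM from 1 read and Hnf4a had no read, against a median of 3.75 RPKM. The 0 of Sox17 at 5000 cells allows up to 1.99 RPKM and the 0 of Hnf4a at 10000 cells up to 3.46 RPKM (upper exact Poisson bounds). The intervals of all 6 genes overlapped one another in both libraries, so they set no order among the 6. No test between genes was run.

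Over 15045 genes with a mean H3K4me3 of at least 1 RPKM, the median log2 ratio of 5000 to 100000 cells was 1.13. Of the 3 members above that minimum, Gata4 had a log2 ratio of 0.10, Gata6 one of -0.34 and Sox7 one of 0.76. All 3 therefore lay below the median gene in this ratio, but on 3, 2 and 6 reads at 5000 cells. Their Poisson intervals there were wide, at 0.333 to 4.72, 0.13 to 3.89 and 1.19 to 7.03 RPKM. None of the 3 was past 2-fold lower, against 2.99% of the 15045 genes, or past 2-fold higher, against 57.3%. With each library scaled to its median gene, the 3 ratios were -0.51, -0.94 and 0.16 in the same order, so the sign for Gata4 depended on the scaling. The minimum uses the compared values, so the place of Gata4, Gata6 and Sox7 is a description only. Sox17, Hnf4a and Afp, below the minimum, had log2 ratios of -3.04, 1.81 and 0.88 on 0, 4 and 2 reads at 5000 cells.

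**Figure D3:**
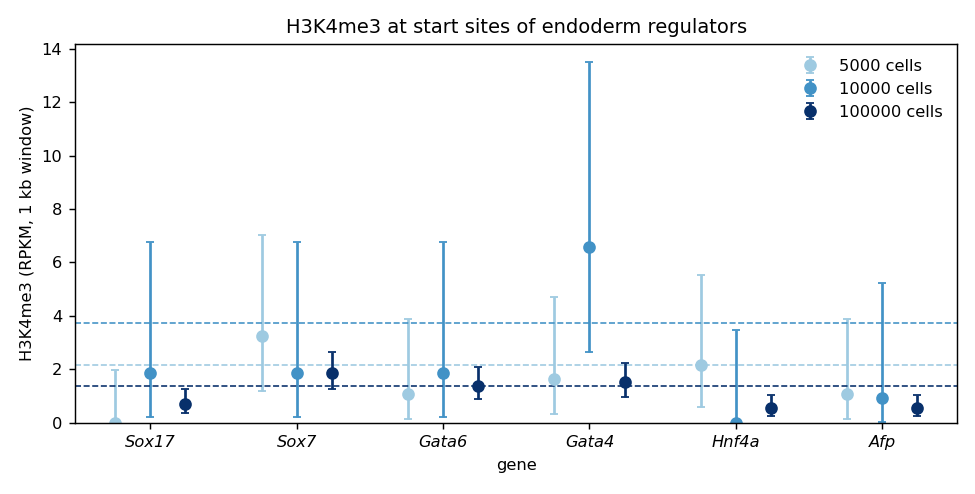
H3K4me3 (RPKM in a 1 kb start-site window, y axis) of the 6 endoderm regulators (x axis) in libraries of 5000, 10000 and 100000 cells, with 95% Poisson intervals and the all-gene medians (dashed, 2.15, 3.75 and 1.39 RPKM). At 100000 cells the genes range from 0.54 RPKM (Hnf4a, Afp) to 1.87 RPKM (Sox7), and the intervals of the shallower libraries are wide.

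H3K4me3 at alternative start sites was compared within each gene at 100000 cells. Gata4 has 6 annotated windows, of which 3 overlap at the start of NM_008092 and share the same reads. The window 31.7 kb downstream had 0.6 RPKM at 100000 cells (10 reads), and those at -25.9 and -26.4 kb, upstream, had 0.36 RPKM (6 reads) and 0.54 RPKM (9 reads). The Gata4 start thus had the most reads, 25, of its windows. Hnf4a has 7 windows, at -40.4 to 2.9 kb from the start of NM_008261, and these held between 9 and 13 reads at 100000 cells, or 0.54 to 0.78 RPKM. Sox17 has 2 windows, 50 bases apart, with the same 12 reads. Gata6, Sox7 and Afp have 1 window each.

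Genes with the most similar pattern were sought over the 3 H3K27me3, 3 H3K4me3 and 1 RNA libraries, as the smallest Euclidean distance on log2(RPKM + 0.1) among 20317 genes. The nearest 2 were 9030224M15Rik (distance 0.714) and Paqr4 (0.78) for Gata4, and Fam150a (0.961) and Eef1a2 (0.97) for Gata6. For Sox17 they were Hoxb5 (1.32) and Prdm13 (1.34), with 3.92 and 3.48 RPKM of H3K27me3 at 100000 cells. For Sox7 they were Ptchd3 (0.615) and C1qtnf4 (0.783), for Hnf4a Tnn (0.483) and Spo11 (0.517), and for Afp Umodl1 (0.407) and Lce1a1 (0.561). None of the nearest genes was another member, but only 6 of the 20317 genes are members. All 7 libraries weighed equally, including H3K4me3 at 5000 and 10000 cells, where members had 0 to 7 reads. Nearness therefore depends in part on few reads.

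The random bins sampled the neighbourhood of each gene but covered the start of none of the 6 transcripts listed above. An alternative start site lay in 2 of them, that of Gata4 at 31.7 kb and that of Hnf4a at 2.9 kb. Of the 16 bins, 5 lay near Gata4, 2 near Gata6, 1 near Sox17, 1 near Sox7, 3 near Hnf4a and 4 near Afp. Their median H3K27me3 was 0.56 RPKM at 1000 cells, 0.69 RPKM at 10000 cells and 0.61 RPKM at 100000 cells, against 0.38, 0.36 and 0.36 RPKM over all bins.

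**Figure D4:**
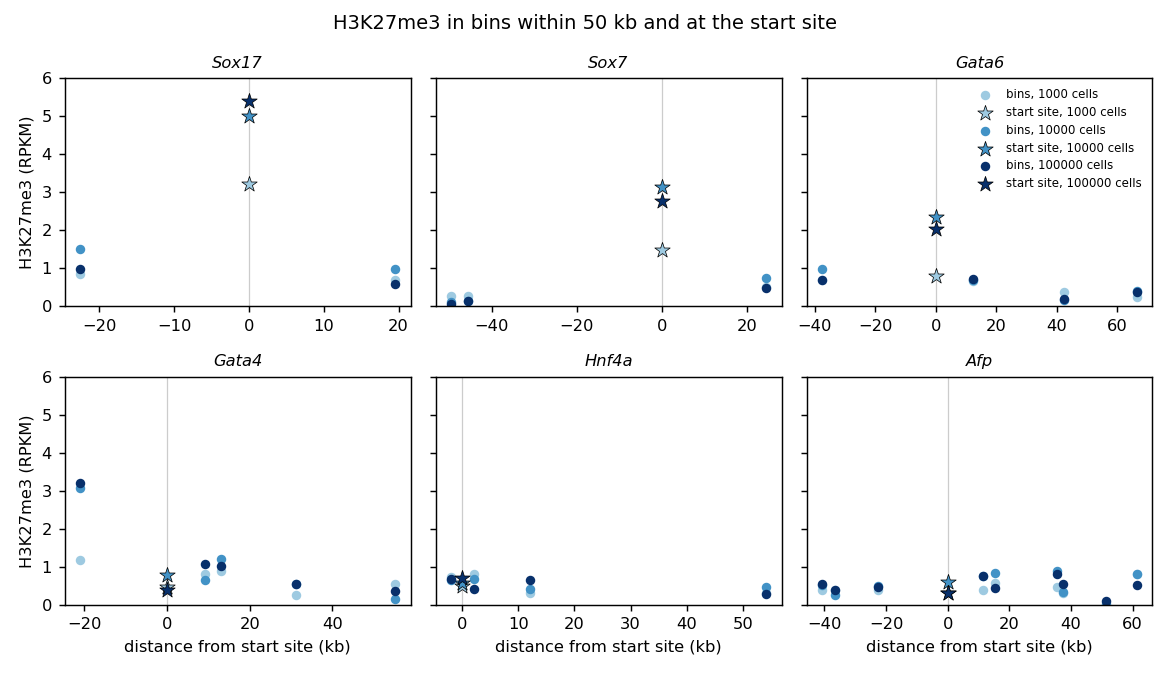
H3K27me3 (RPKM, y axis) of random 2 kb bins within 50 kb of each gene (circles) and of the window at its start site (stars), by distance from the start (kb, negative upstream), at 1000, 10000 and 100000 cells. For Sox17, Sox7 and Gata6 the stars stand above the bins at 10000 and 100000 cells, and for Gata4 the bin 20.9 kb upstream (1.19, 3.07 and 3.2 RPKM) stands above the start site.

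H3K27me3 was compared with H3K9me3 at matched cell numbers in every bin (limma on log2(RPKM + 0.1), cell number as a factor, Benjamini-Hochberg over 93578 bins). H3K27me3 was higher in 8 of the 16 bins, against 14.3% of all bins, and lower in none, against 13.7%. The 8 bins were 4 near Gata4, 1 near Gata6 and 3 near Hnf4a. No bin near Sox17, Sox7 or Afp was called, and the labels leave unsaid whether libraries of equal cell number were separate cultures. The p-values therefore reflect library-to-library spread alone, which may be technical.

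The bin with the most H3K27me3 lay 20.9 kb upstream of the Gata4 start (chr14:63884001-63886000, mm9), the start being that of NM_008092. It had 1.19 RPKM (31 reads) at 1000 cells, 3.07 RPKM (94 reads) at 10000 cells and 3.2 RPKM (126 reads) at 100000 cells. H3K9me3 there was 0.51, 0.44 and 0.31 RPKM in 1000-cell libraries a, b and c, 0.49 RPKM at 10000 cells, 0.37 RPKM at 100000 cells and 0.21 RPKM at 1000000 cells. H3K27me3 was above every H3K9me3 value, with a log2 difference of 2.07 ± 0.229 (SE) and an adjusted p of 7.46e-09 by limma. The bin ranked at percentiles 98.7, 99.8 and 99.9 of all bins for H3K27me3. It lies 3.96 kb from the nearest annotated upstream start of Gata4, whose 2 windows carried the 6 and 9 H3K4me3 reads given above.

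Within Gata4, the bin 9.1 kb downstream of the start had H3K27me3 of 0.81, 0.65 and 1.07 RPKM at 1000, 10000 and 100000 cells, against H3K9me3 of 0.15 to 0.48 RPKM at the same cell numbers (log2 difference 1.24, limma adjusted p 5.33e-05). The bin 13.1 kb downstream had 0.88, 1.21 and 1.02 RPKM of H3K27me3, against 0.14 to 0.41 RPKM of H3K9me3 (log2 difference 1.45, limma adjusted p 8.66e-06). The marks did not overlap in either bin. The bin 31.1 kb downstream had 0.27, 0.56 and 0.56 RPKM of H3K27me3 and was not called (limma adjusted p 0.0775). Its limma adjusted p was 0.0498 with a pseudocount of 1 RPKM and 0.0335 without cell number as a factor. Without the libraries of 1000 cells it was 0.0383, and under the other alternatives 0.0583 to 0.318. The last called bin, 55.1 kb from the Gata4 start, lies in the neighbouring DNA glycosylase gene Neil2. It had 0.54, 0.16 and 0.36 RPKM of H3K27me3 against 0.02 to 0.17 RPKM of H3K9me3, overlapping values, with a log2 difference of 1.38 (limma adjusted p 0.000509). Its H3K27me3 was ordinary, at percentiles 72, 21.1 and 48.8 of all bins at 1000, 10000 and 100000 cells.

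Near Hnf4a the 3 bins lay 1.93 kb upstream and 2.07 and 12.1 kb downstream of the start. The upstream bin had 0.73, 0.65 and 0.69 RPKM of H3K27me3 at 1000, 10000 and 100000 cells, against 0.34 to 0.52 RPKM of H3K9me3 (log2 difference 0.60, limma adjusted p 0.0368). The bin 2.07 kb downstream had 0.81, 0.69 and 0.41 RPKM of H3K27me3, against 0.17 to 0.3 RPKM of H3K9me3 (log2 difference 1.06, limma adjusted p 0.00123). The bin 12.1 kb downstream had 0.31, 0.42 and 0.64 RPKM of H3K27me3, against 0.04 to 0.37 RPKM of H3K9me3, so the marks overlapped (log2 difference 1.09, limma adjusted p 0.00501). The limma adjusted p of the upstream bin was 0.0523 to 0.0583 without any single H3K9me3 library of 1000 cells, so that call rests on all 3. Without the libraries of 1000 cells the adjusted p was 0.286 for the upstream bin and 0.128 for the bin 2.07 kb downstream. The upstream bin had 0.121 without those of 100000 cells and 0.0849 with libraries centred per chromosome (log2 difference 0.49); the ratio of chromosome 2 to the autosomes was 1 in the H3K27me3 libraries and 0.811 to 0.892 in those of H3K9me3. For the bin 12.1 kb downstream the adjusted p was 0.0834 without those of 10000 cells, 0.0721 without those of 100000 cells and 0.0637 with no filter on low values.

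Near Gata6 the bin 12.5 kb downstream of the start had 0.65, 0.69 and 0.71 RPKM of H3K27me3, against 0.21 to 0.37 RPKM of H3K9me3 (log2 difference 0.94, limma adjusted p 0.00185). The bin 42.5 kb downstream had 0.38, 0.16 and 0.18 RPKM of H3K27me3 and was not called. The Sox17 bin, 19.5 kb downstream, had 0.69, 0.98 and 0.58 RPKM of H3K27me3, far below the Sox17 start site, and overlapped H3K9me3 at 0.22 to 0.79 RPKM (log2 difference 0.60, limma adjusted p 0.0648). The adjusted p of this Sox17 bin was 0.0404 without H3K9me3 library b and 0.012 without the libraries of 1000 cells. The Sox7 bin, 24.5 kb downstream, had 0.5, 0.75 and 0.48 RPKM (log2 difference 0.35, limma adjusted p 0.249). The 4 Afp bins had 0.31 to 0.88 RPKM of H3K27me3 with limma adjusted p between 0.144 and 0.845. Without the libraries of 1000 cells, the Afp bin 11.3 kb downstream had a log2 difference of 1.01 and a limma adjusted p of 0.00951, against 0.49 and 0.147 with them.

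H3K9me3 was compared with panH3 at 1000 cells, the contrast with replicates on both sides (limma as above, over 93575 bins). H3K9me3 was higher in none of the 16 bins, against 15.2% of all bins, and lower in 4, against 24.7%, a share of 4 in 16 that is close to that of all bins. Over all bins 14224 were higher and 23158 lower, whereas with each library centred on its median 20312 were higher and 18564 lower. The median log2 difference of all bins was 0.08 with centring, against -0.10 without it, and with centring 2 of the 16 bins were lower.

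Those 2 bins lie near Gata4. The bin 31.1 kb downstream of the start had H3K9me3 of 0.28, 0.26 and 0.15 RPKM in libraries a, b and c, against panH3 of 0.61 and 0.52 RPKM in libraries a and b. The groups did not overlap, with means of 0.23 ± 0.07 RPKM (SD, n = 3) for H3K9me3 and 0.565 ± 0.0636 RPKM (SD, n = 2) for panH3. The log2 difference was -1.03 ± 0.249 (SE), with a limma adjusted p of 0.00152, or 0.0563 without panH3 library a. The bin in Neil2 had H3K9me3 of 0.11, 0.1 and 0.17 RPKM, against panH3 of 0.38 and 0.39 RPKM, again without overlap (log2 difference -1.11 ± 0.26, limma adjusted p 0.00111).

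The other 2 bins were not called with centring. The bin 13.1 kb into Gata4 had 0.14, 0.36 and 0.35 RPKM of H3K9me3, against 0.51 and 0.47 RPKM of panH3 (log2 difference -0.68, limma adjusted p 0.0445, and 0.134 when centred). The bin 12.1 kb into Hnf4a had 0.23, 0.37 and 0.17 RPKM of H3K9me3, against 0.4 and 0.51 RPKM of panH3 (log2 difference -0.67, limma adjusted p 0.043, and 0.134 when centred). Without panH3 library a, 1 of the 16 bins was lower, that in Neil2, and without panH3 library b the 2 described first were. In the bin with the most H3K27me3, 20.9 kb upstream of Gata4, H3K9me3 was 0.42 ± 0.101 RPKM (SD, n = 3) against 0.49 RPKM in both panH3 libraries, a log2 difference of -0.20 (limma adjusted p 0.508). The Sox17 bin had 0.63, 0.79 and 0.53 RPKM of H3K9me3 against 0.56 and 0.45 RPKM of panH3, a log2 difference of 0.30 (limma adjusted p 0.256). The Sox7, Gata6 and Afp bins were not called, with limma adjusted p from 0.0678 to 0.916, nor were the remaining 3 of Gata4 and Hnf4a, with 0.166 to 0.799.

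**Figure D5:**
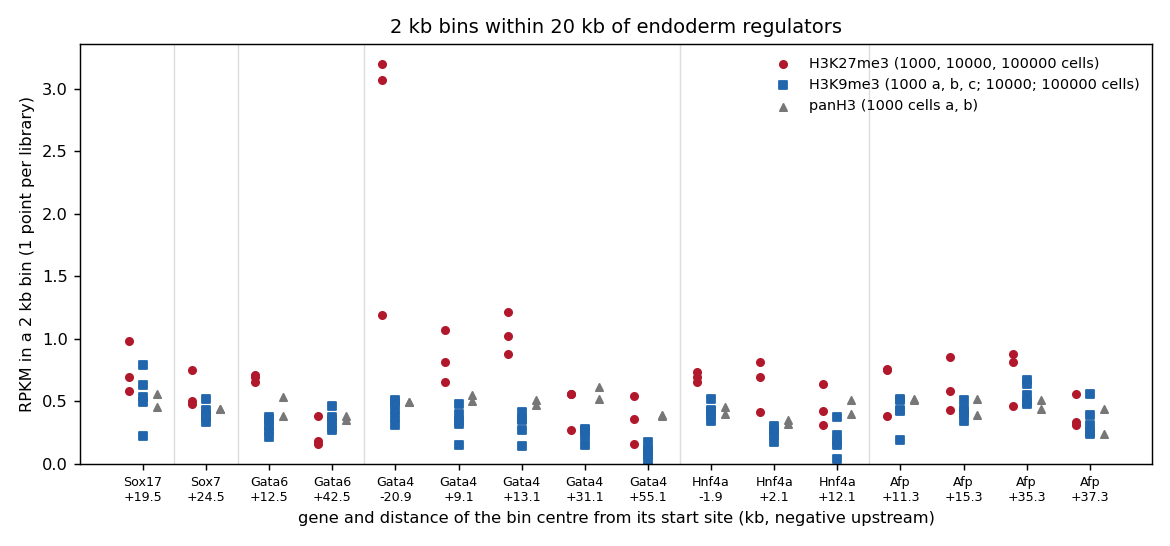
RPKM (y axis) in each random 2 kb bin within 20 kb of an endoderm regulator, 1 point per library, for H3K27me3 (circles), H3K9me3 (squares) and panH3 (triangles), with bins ordered by gene and distance from its start (kb). The Gata4 bin at -20.9 kb reaches 3.2 RPKM of H3K27me3, against at most 0.51 RPKM of H3K9me3 and 0.49 RPKM of panH3.

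Across the other lists, H3K27me3 exceeded H3K9me3 in 19 of 28 bins near definitive endoderm and gut genes and in 28 of 79 near primitive endoderm and basement membrane genes, against 14.3% of all bins. The median log2 difference was 1.09 near the gut genes, 0.41 near the primitive endoderm genes and 0.61 near the 6 regulators, against 0.06 over all bins. It was higher in 13 of 26 bins near pluripotency genes, 4 of 23 near hepatic genes, 6 of 26 near paralogs and neighbours, 8 of 26 near fibroblast markers and 2 of 12 near housekeeping genes. The pluripotency bins had median H3K27me3 of 0.54, 0.395 and 0.305 RPKM at 1000, 10000 and 100000 cells. The medians over all bins were 0.38, 0.36 and 0.36 RPKM. H3K27me3 was below H3K9me3 in 0 bins near gut genes, 1 near primitive endoderm genes, 3 near pluripotency genes and 2 near hepatic genes, against 13.7% of all bins. It was below H3K9me3 in 3 bins near paralogs and neighbours, 2 near fibroblast markers and 1 near housekeeping genes. H3K9me3 was below panH3 in 14 of 28 bins near gut genes, 30 of 79 near primitive endoderm genes, 18 of 26 near pluripotency genes and 12 of 23 near hepatic genes, against 24.7% of all bins. It was lower in 6 of 26 near paralogs and neighbours, 8 of 26 near fibroblast markers and 11 of 12 near housekeeping genes. H3K9me3 was above panH3 in 2 bins near gut genes, 1 near primitive endoderm genes, 1 near pluripotency genes and 4 near hepatic genes, against 15.2% of all bins. It was above panH3 in 5 bins near paralogs and neighbours, 4 near fibroblast markers and 0 near housekeeping genes.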

How the data were processed

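Sorted TT2 cells were profiled by native ChIP-seq and rRNA-depleted RNA sequencing on paired-end Illumina runs, per the labels. Antibodies, per the labels, were from Active Motif (H3K9me3), Diagenode (H3K27me3), Abcam (H3K4me3) and Sigma (panH3). BWA, SAMtools (RNA) and mm9 were used, per the submitters' processing notes; for versions, counting and filters, nothing is given in the sources used here. Per the file headers, the authors deposited RPKM values, each library in a column of its own. The panH3 headers name no unit; RPKM was assumed for both. Of the start-site table, 2 columns belong to another series and were left out.

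Low values in equal windows were whole multiples of 1 read within 0.005 RPKM in 100% of cases, which gave each depth: 13.4 to 45.52 M reads for H3K9me3, 42.03 and 42.16 M for panH3, and those in the report. In deep libraries this is a weak check. Whole multiples covered 91.33% of possible low values in H3K9me3 at 1000000 cells and 84% in each panH3 library. H3K27me3 values at start sites were not such multiples (24.0 to 39.5%). That share is about what any values at 2 decimals would give at these depths (26 to 39.33%). Their read numbers (RPKM times 2 kb times depth) are therefore an assumption that these values do not show, and so are their intervals. Exact Poisson 95% intervals cover counting error only. The largest bin value was 5 RPKM, and no start-site window passed 50 RPKM at 5000 or 100000 cells or 100 at 10000 cells, which looks like a ceiling that removed stronger windows.

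Tests used limma 3.58.1 in R 4.3.3 on log2(RPKM + 0.1) with trend and robust moderation, two-sided, in bins above 0 in at least 1 library, adjusted over all bins at 0.05, and were tested on simulated data. Fold changes on this scale understate those of low values. Comparisons of 1 library per group have no test. The letters a and b of H3K9me3 and panH3 were not treated as pairs. Alternatives covered pseudocount, filter, centring, voom weights on recovered reads, distance, thresholds, left-out libraries and, added after seeing the data, division by chromosome ratio. The 6 members and all lists were chosen with earlier results of these data known. Named genes are the members, from each list the 3 genes with the highest and the 1 with the lowest H3K27me3 at 100000 cells and the 3 with the highest RNA, and the 2 nearest patterns per member. Some genes the rule names are not reported here. Col3a1, Postn, Lum, Dcn and S100a4 were named after their values were seen. Other software was matplotlib 3.10.9, scipy 1.17.1, pandas 2.3.3 and numpy 2.4.6 under Python 3.11.15.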

Additional observations from a re-analysis of the deposited data

How the results depend on the processing

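Of the recomputed counts, 78 stayed within 1.5 times the reported one, among them counts of 0 that stayed at 0, and 16 moved. A reversal of direction was not defined for counts. The cause of a move was not tested except where named. Bins in which H3K27me3 exceeded H3K9me3 stayed within 1.5 times of 8 under every alternative. For H3K9me3 below panH3, the count was 2 with no filter on low values, 2 with each library centred on its median and 2 when centred per chromosome. It ranged from 1 to 4 when single libraries were left out, and within 50 kb it was 8 lower and 2 higher of 27 bins, which are more bins. The replicate block by the letters a and b gave 4 lower and 0 higher member bins, and 13555 higher and 22786 lower over all bins; differences between a and b in H3K9me3 and in panH3 had a correlation of -0.00955 across bins, and the labels give no pairing. With the block the Hnf4a bin 12.1 kb downstream had a limma adjusted p of 0.142 and the Gata6 bin 12.5 kb downstream one of 0.0292.

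For 1000 against 100000 cells, H3K27me3 was past 2-fold lower in 0 members with a pseudocount of 1. For 5000 against 100000 cells, H3K4me3 was past 2-fold lower in 1 member and higher in 1 with no filter on low values, which brings in genes of 0 to 4 reads at 5000 cells, and higher in 1 with libraries scaled to the median gene. Counts at other levels followed the threshold. At 0.5 RPKM 6 members passed for H3K27me3 at 10000 cells, 6 for H3K4me3 at 100000 cells and 2 for RNA. At 2 RPKM 1 passed for H3K27me3 at 1000 cells and 0 for H3K4me3 at 100000 cells. For these levels and for the other settings of this paragraph, shares over all genes were not computed. The counts show how the setting acts and are no result about the members. Division by the chromosome ratio, added after seeing the data, left the counts at 1 RPKM unchanged for the 3 H3K27me3 libraries.

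Depth limits H3K4me3 at 5000 and 10000 cells, where the members rest on 0 to 7 reads. RNA, H3K27me3 and H3K4me3 have 1 library per cell number, and bins cover only part of each neighbourhood.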

Other observations

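Bins between 20 and 50 kb from the 6 genes were outside the set described above. H3K27me3 was above H3K9me3 (limma adjusted p) in the bin at -37.5 kb from the Gata6 start, with 0.69, 0.98 and 0.69 RPKM at 1000, 10000 and 100000 cells, against 0.19 to 0.37 RPKM of H3K9me3 (log2 difference 1.19, adjusted p 0.000168). The bin at -22.5 kb from the Sox17 start had 0.84, 1.5 and 0.99 RPKM of H3K27me3, against 0.41 to 0.84 RPKM of H3K9me3 (log2 difference 0.72, limma adjusted p 0.0134). In the 2 bins at -45.5 and -49.5 kb from the Sox7 start, both in the neighbouring gene Pinx1, H3K9me3 was 0.04 to 0.14 RPKM against 0.35 to 0.58 RPKM of panH3 (log2 differences -1.33 and -1.63, limma adjusted p 0.000122 and 4.48e-05). The bin at 54.1 kb from the Hnf4a start lay 0.05 kb from a start-site window of another gene, Ttpal. H3K27me3 there was 0.31, 0.46 and 0.28 RPKM against 0.09 to 0.15 RPKM of H3K9me3 (log2 difference 0.88, limma adjusted p 0.0161). These H3K27me3 values were at percentiles 34.8, 63.1 and 37.3 of all bins. At 1000 cells H3K9me3 there was 0.09, 0.14 and 0.15 RPKM against 0.56 and 0.47 RPKM of panH3 (log2 difference -1.45, limma adjusted p 5.65e-05). In the bin at -36.7 kb from the Afp start, H3K9me3 was 0.23, 0.37 and 0.35 RPKM against 0.56 and 0.55 RPKM of panH3 (log2 difference -0.67, limma adjusted p 0.0211). H3K9me3 was above panH3 in 2 bins downstream of Afp, both in its albumin-family neighbour Afm. The bin 61.3 kb from the Afp start had 0.63, 0.73 and 0.79 RPKM of H3K9me3 against 0.45 and 0.49 RPKM of panH3 (log2 difference 0.52, limma adjusted p 0.0338). The bin 51.3 kb from the start had 0.11 RPKM in all 3 H3K9me3 libraries against 0.02 and 0.04 RPKM of panH3 (log2 difference 0.70, limma adjusted p 0.0257). That bin was near empty, with 1, 0 and 4 H3K27me3 reads at 1000, 10000 and 100000 cells. With 1 panH3 read worth about 0.012 RPKM, the call rests on few reads.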
